A study of Mus musculus with 15 samples.

Results

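Hearts carrying 1 copy of the Rbm20 S639G allele were compared with wild-type hearts. The comparison takes the 3 libraries of heterozygous mice of the G-line (G-line HET) and the 3 wild-type (WT) libraries, chosen by their sample titles. These are 6 of the 15 libraries deposited, of which 13 are distinct. Total RNA of the left ventricle of C57BL/6 mice aged 2 months was sequenced in every group. The G-line HET samples are labelled Rbm20 S639G +/- and the WT samples carry no labelled change. The study has 3 further groups: G-line homozygotes (G-line HOM, labelled S639G -/-), and heterozygotes (A-line HET) and homozygotes (A-line HOM) of a neighbouring allele, S637A. The study asked by which mechanisms the alleles change the heart. No label ties replicates to different mice, and the p-values below rest on the spread among libraries, some of which may be technical.

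RBM20 is an RNA-binding protein of striated muscle that represses exons of titin, CaMKIIδ, the ryanodine receptor and other sarcomeric and calcium-handling transcripts. It normally acts in the nucleus, and a serine-rich stretch in its RS domain, in which both alleles lie, governs its nuclear entry. Dominant mutations there cause a dilated cardiomyopathy with arrhythmia, in which mutant protein collects in cytoplasmic granules. Counts per gene, as used here, do not show splicing, so the changes below concern transcript abundance only.

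WT replicates 2 and 3 held the same values as A-line HOM replicates 2 and 3 in all 40174 gene symbols, and each was counted once, as WT. In Myh7b, the 2 shared libraries held 55.3 and 75.0 CPM (counts scaled to library size), beside 70.4 in WT replicate 1 and 0.343 in A-line HOM replicate 1. The 6 libraries held 23714906 to 28121438 counts. WT replicate 2 carried transcripts of atrial muscle and fat: Myl7, the atrial myosin light chain, stood at 523.9 CPM there and at most at 0.340 in the other 5 libraries, and Adipoq at 11.0 CPM. Mitochondrial ribosomal RNA took 20.2% to 23.4% of counts in WT and 15.4% to 16.7% in G-line HET. The part of these differences in the results was not tested, beyond fits without mitochondrial and ribosomal RNA genes or without WT replicate 2. No fit left out the atrial or fat transcripts.

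Of 17588 genes tested, 1322 (7.52%) differed between G-line HET and WT at an adjusted p under 0.05 by edgeR's quasi-likelihood test. Of these, 699 (3.97%) were higher in G-line HET and 623 (3.54%) lower. Their median change was 0.78 on the log2 scale, irrespective of direction, and 484 passed 2-fold. The median over all genes tested was -0.01. The shares of 3.97% and 3.54% are those to set beside the counts of list members called below. Rbm20 itself held 418.9, 356.9 and 409.9 CPM in WT and 399.3, 397.3 and 366.5 in G-line HET. Its libraries overlapped, with a log2 change of -0.03 ± 0.10 (SE) and an adjusted p of 0.907. The number of genes called fell to 543 without WT replicate 1, to 599 without WT replicate 3, to 515 without G-line HET replicate 1 and to 740 without G-line HET replicate 3. With the shared pair left out it was 236, and with the pair read as A-line HOM it was 5. No gene called among the 1322 turned direction in any of these fits. In the last 2 fits WT is 1 library, and the log2 change of Myh7b was -6.74 and -6.73. The counts called there thus also follow the spread that each fit estimates from the other groups.

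**Figure D1:**
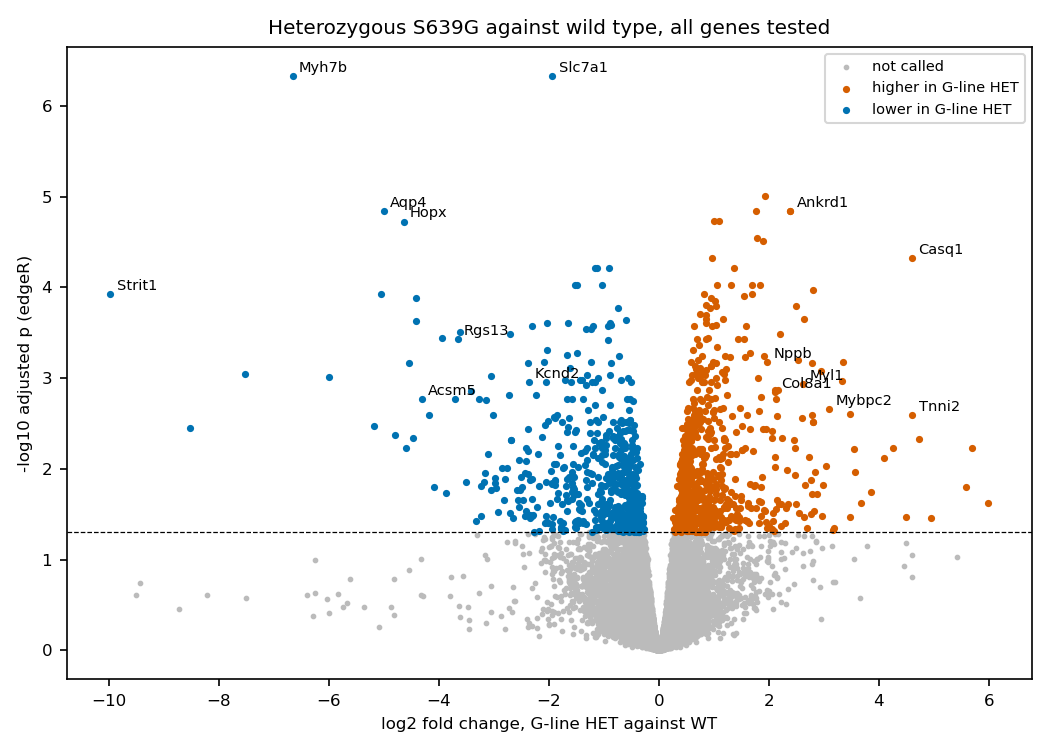
Each point is 1 of 17588 genes tested, with the log2 fold change of G-line HET against WT on the x axis and -log10 of the adjusted p on the y axis; the dashed line marks an adjusted p of 0.05. Orange points are the 699 genes called higher and blue points the 623 called lower; Strit1 and Myh7b lie farthest to the left among the labelled genes and Casq1 and Tnni2 farthest to the right.

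The genes that fell farthest were close to absent in the heterozygotes. Strit1 encodes DWORF, a micropeptide that activates the calcium pump SERCA. It held 6.66, 4.84 and 5.25 CPM in WT, 409 counts in all, and no count in the 3 G-line HET libraries. With 3 counts over the group taken as the detection floor, it was at least 143.2-fold lower (adjusted p = 0.000119). Myh7b, a slow-type myosin heavy chain whose gene also carries a muscle microRNA, held 70.4, 55.3 and 75.0 CPM in WT against 1.14, 0.216 and 0.586. All WT libraries stood far above all G-line HET libraries, and the log2 change was -6.65 ± 0.31 (adjusted p = 4.64e-07). Hopx, a homeodomain cofactor that does not itself bind DNA, held 145.1, 122.0 and 145.9 CPM in WT against 6.32, 6.26 and 4.03. It fell by 4.64 ± 0.29 on the log2 scale (adjusted p = 1.88e-05).

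The promoters of 2 of these genes and of 2 of the skeletal-type genes that rose are shown as examples of muscle genes with large changes in either direction. Each runs from 250 bases before to 50 after the start in RefSeq (GRCm38.p6), on the gene's own strand, at chr3:63483857-63484156 (minus) for Strit1, chr2:155610993-155611292 (plus) for Myh7b, chr1:172219846-172220145 (minus) for Casq1 and chr1:66945007-66945306 (minus) for Myl1. Capitals mark E-boxes (CANNTG, the letters of basic helix-loop-helix factors) and M-CAT elements (CATTCC, the letters of TEAD factors), on either strand.
Strit1: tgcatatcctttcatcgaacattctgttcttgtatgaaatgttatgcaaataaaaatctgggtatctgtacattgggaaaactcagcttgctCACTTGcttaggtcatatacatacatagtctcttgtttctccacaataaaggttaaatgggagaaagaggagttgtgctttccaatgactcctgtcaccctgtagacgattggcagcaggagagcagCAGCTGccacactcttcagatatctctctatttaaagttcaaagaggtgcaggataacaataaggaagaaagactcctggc
Myh7b: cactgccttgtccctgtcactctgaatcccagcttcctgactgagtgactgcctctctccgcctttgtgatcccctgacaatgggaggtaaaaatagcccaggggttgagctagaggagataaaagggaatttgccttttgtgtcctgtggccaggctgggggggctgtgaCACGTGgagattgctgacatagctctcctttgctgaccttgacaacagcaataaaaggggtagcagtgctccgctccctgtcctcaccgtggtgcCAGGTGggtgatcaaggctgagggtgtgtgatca
Casq1: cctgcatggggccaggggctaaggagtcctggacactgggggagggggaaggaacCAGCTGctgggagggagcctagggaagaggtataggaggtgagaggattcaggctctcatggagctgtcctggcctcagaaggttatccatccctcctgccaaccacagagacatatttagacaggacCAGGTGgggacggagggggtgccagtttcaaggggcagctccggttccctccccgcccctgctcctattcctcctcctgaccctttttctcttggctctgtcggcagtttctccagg
Myl1: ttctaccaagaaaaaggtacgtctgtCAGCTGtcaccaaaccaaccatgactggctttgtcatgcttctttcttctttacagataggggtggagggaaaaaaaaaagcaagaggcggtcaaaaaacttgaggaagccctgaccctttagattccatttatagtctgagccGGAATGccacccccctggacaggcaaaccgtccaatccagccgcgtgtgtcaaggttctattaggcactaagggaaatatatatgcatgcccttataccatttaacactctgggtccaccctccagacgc
Strit1, Myh7b and Casq1 each held 2 E-boxes, and Myl1 held 1 together with 1 M-CAT element. E-boxes are in 72.3% of 32851 promoters of this length and M-CAT elements in 14.7%. The MEF2 motif was in none of the 4 windows and in 3.19% of all. Matches to such letters are a description and not shown binding sites.

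Several of the lowest genes had a neighbour that fell with them, by the order of genes in RefSeq's GRCm38.p6 annotation. Neighbours here are the nearest genes among those tested, up to 2 on each side, and any that overlap. Genes that were not tested may lie between. Gm34240, next to Strit1, held 147 counts in WT and none in G-line HET, at least 52.4-fold lower (adjusted p = 0.00353 by edgeR). DESeq2 did not call Gm34240 (adjusted p = 0.268), and it fell under the filter when any WT library was left out. The other neighbours of Strit1, Mme (-1.52, adjusted p = 0.0965), E130311K13Rik (-0.10, adjusted p = 0.797) and Slc33a1 (-0.17, adjusted p = 0.361), were not called. Rgs13, a regulator of G-protein signalling, held 3.22, 4.05 and 3.38 CPM in WT and 0.227, 0.432 and 0.183 in G-line HET, a log2 change of -3.66 ± 0.43 (adjusted p = 0.000374). Beside it Gm35356 (-4.42), Gm35415 (-3.70) and Rgs1 (-5.17) fell as well, while Rgs2 on its far side was not called (-0.20, adjusted p = 0.710). Lincred1 fell from 3.22, 3.33 and 3.79 CPM to 0.0756, 0.173 and 0.183 (-4.54, adjusted p = 0.000678), with Lmo2 (-1.32, adjusted p = 0.000285) and Gm38515 (-1.07, adjusted p = 0.0173) next to it. Gm38515 was not called without WT replicate 1 (adjusted p = 0.0926) or without any 1 of the G-line HET libraries. Neither flank of Myh7b was called. Hopxos overlaps Hopx, and without a statement on strand the 2 cannot be told apart.

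Further genes among the 15 lowest came from many tissues' repertoires, each under 15 CPM in WT. Aqp4, a water channel, held 11.9, 8.33 and 8.84 CPM in WT and 0.454, 0.130 and 0.293 in G-line HET (-5.0 ± 0.41, adjusted p = 1.44e-05). Cngb3, a subunit of the cone photoreceptor's cyclic nucleotide channel, fell by 3.11 ± 0.59 and Rp1, a photoreceptor axoneme protein, by 4.8 ± 0.78. Acsm5, a medium-chain acyl-CoA synthetase, fell by 4.31. Pde11a, a cyclic nucleotide phosphodiesterase, fell by 4.18, Rhd, of the red-cell Rh complex, by 3.93, and Cfap61, a ciliary protein, by 3.61. Ubxn10 fell by 4.09 (adjusted p = 0.0157) and the pseudogene Zp4-ps by 3.17 (adjusted p = 0.0140). Ubxn10 was not called without G-line HET replicate 1 (adjusted p = 0.0889) or 3 (0.0515), nor Zp4-ps without WT replicate 1 (0.0623) or G-line HET replicate 1 (0.0833). In all of these genes every G-line HET library lay below every WT library, which the rule for naming them required.

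**Figure D2:**
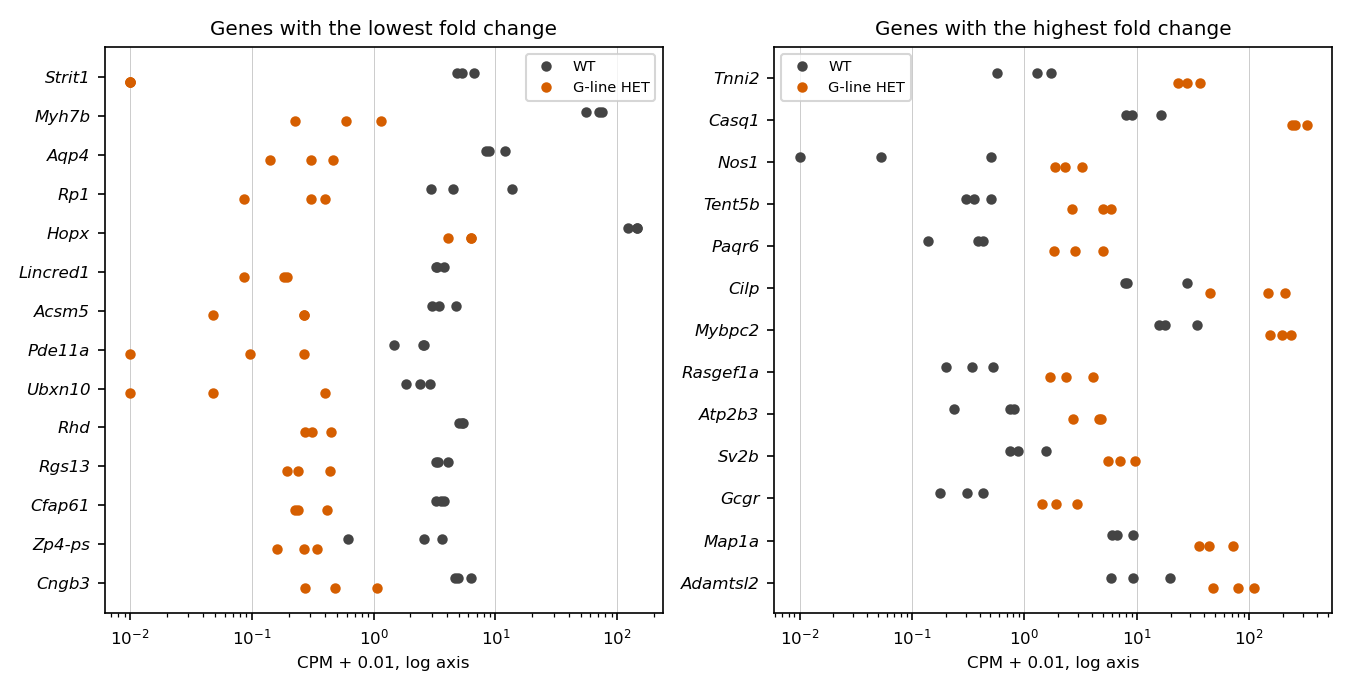
CPM plus 0.01, on a log axis, in each of the 3 WT (grey) and 3 G-line HET (orange) libraries, for 14 of the genes with the lowest (left) and 13 of those with the highest (right) fold change; symbols that coincide overlap. The G-line HET points of Strit1 lie at the axis floor because no count was found, and no gene shows overlapping groups.

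Genes of skeletal muscle stood at the other end. Casq1, the calsequestrin of skeletal muscle, held 9.15, 16.4 and 7.96 CPM in WT and 325.2, 254.5 and 240.1 in G-line HET. The groups lay far apart, and Casq1 was 24.4-fold higher (log2 change 4.61 ± 0.32, adjusted p = 4.78e-05). Tnni2, the fast skeletal troponin I, held 0.558, 1.70 and 1.29 CPM in WT and 23.4, 36.9 and 28.0 in G-line HET, also 24.4-fold higher (4.61 ± 0.60, adjusted p = 0.00256). Mybpc2, the fast-type myosin-binding protein C, rose 8.54-fold, from 18.0, 34.7 and 15.7 CPM to 234.8, 194.9 and 154.8 (adjusted p = 0.00221). Myl1, a fast-type myosin light chain, rose 6.19-fold, from 26.6, 53.2 and 34.9 CPM to 261.1, 220.0 and 229.2 (adjusted p = 0.00115). Of 12 skeletal muscle markers 7 were expressed enough to be tested, 3 were called higher (Casq1, Tnni2 and Myl1) and none lower. Myh1, Myh2, Myh4, Mylpf and Actn3, the markers that define fast skeletal fibres most closely, did not pass the filter on low counts. Myh1 had 1 count over WT and 26 over G-line HET, Myh4 had 0 and 25 (24 of them in replicate 1), and Myh2, Mylpf and Actn3 had at most 10 counts in any of the 6 libraries. Tnnt3, the fast troponin T, had 20 counts over WT against 166 over G-line HET, a change of 2.96 that was not called (adjusted p = 0.0753).

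Other genes among the 15 highest belong to excitable membranes, signalling and matrix. Sv2b, of synaptic vesicles (2.80 ± 0.29), Map1a, a microtubule-associated protein (2.79 ± 0.31), Atp2b3, a plasma membrane calcium pump (2.81 ± 0.47), Gcgr, the glucagon receptor (2.79 ± 0.47), and Paqr6, a membrane progestin receptor (3.35 ± 0.46), rose and kept their calls without any 1 library. The next 5 genes did not keep them in every such fit. Nos1, the neuronal nitric oxide synthase, rose by 3.68 ± 0.84 (adjusted p = 0.0240) and was called only when WT replicate 2 was the library left out (without WT replicate 1, 0.0991). Cilp, a matrix protein of cartilage and scar (3.19), kept its call only in the fits without replicate 2 of WT or of G-line HET (up to 0.158 in the others). Tent5b (3.56) was not called without WT replicate 1 (0.0585) or 3, and Rasgef1a (2.96) in 5 of 6 such fits, up to an adjusted p of 0.120. Adamtsl2, a microfibril-associated protein (2.76), was not called without WT replicate 3 (0.0620) or G-line HET replicate 1.

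Among sarcomere genes, 4 of 29 tested were higher and 2 lower (3.97% and 3.54% of all genes), with a median of 0.06. In 10 of the 29 every G-line HET library lay above every WT library, and in 8 below. Over all genes these held in 15.1% and 16.5%. Their summed level, titin included, was 144700 to 166000 CPM in WT and 175000 to 185000 in G-line HET. Myh7, the slow and fetal ventricular myosin, was lower: 178.6, 224.0 and 156.7 CPM in WT against 81.1, 77.2 and 93.3 in G-line HET (-1.15 ± 0.17, adjusted p = 0.00197). Myh6, the adult mouse ventricular myosin, overlapped between groups (-0.03 ± 0.12, adjusted p = 0.921), though reads of these near-identical genes may have been divided between them. Mybpc3, the cardiac myosin-binding protein C (0.52, adjusted p = 0.0215), and Myom1, an M-band protein (0.42, adjusted p = 0.0132), rose. Flnc, a filamin of the Z-disc, rose 1.82-fold (adjusted p = 0.00708). Titin held 97290, 78810 and 85680 CPM in WT and 108700, 109000 and 110400 in G-line HET, a change of 0.33 ± 0.11 that was not called (adjusted p = 0.0848). Mybpc3 was not called without WT replicate 1 (adjusted p = 0.0677) or 2 or G-line HET replicate 1 (0.122) or 3, and Myom1 not without WT replicate 2 or 3 or G-line HET replicate 1 (0.0820).

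The myosin heavy chain genes Myh7b and Myh7, which fell, and Myh6, which was not called, carry microRNAs of the heart. These are shown with their seeds (bases 2 to 8) in capitals, since a host gene and its microRNA are usually transcribed together.
mmu-miR-499-5p: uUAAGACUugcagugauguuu
mmu-miR-208a-3p: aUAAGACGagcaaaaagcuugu
mmu-miR-208b-3p: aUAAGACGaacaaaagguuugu
The mature sequences are RefSeq's (GRCm38.p6). miR-499 lies within Myh7b, miR-208a within Myh6 and miR-208b within Myh7, and miR-208a and miR-208b share 1 seed. The hairpin of miR-499 had no count in any library, WT included, so its level was not measured here even where its host was expressed. Mir208a had 58, 46 and 63 counts in WT and 50, 40 and 80 in G-line HET. Mir208b had 156, 140 and 188 counts in WT and 95, 115 and 139 in G-line HET. Scaled to library size these were 6.70, 5.30 and 7.84 CPM against 3.59, 4.97 and 5.09. The G-line HET values lay narrowly below WT, as in 16.5% of all genes. Whether reads on these hairpins came from the host transcripts was not tested.

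Of 36 calcium-handling genes, 2 were higher and 3 lower (median -0.04), beside 3.97% and 3.54% of all genes. Strit1 and Atp2b1, a plasma membrane calcium pump (-0.30 ± 0.07, adjusted p = 0.0197), fell, as did Calr, the chaperone calreticulin (-0.36, adjusted p = 0.0419). Casq1 and Calm3, a calmodulin gene (0.44, adjusted p = 0.0265), rose. Atp2a2, the SERCA pump itself, held 14770, 12900 and 14600 CPM in WT and 9430, 10350 and 8945 in G-line HET. The groups did not overlap, yet the change of -0.56 ± 0.17 was not called (adjusted p = 0.0611). Ryr2 (-0.15, adjusted p = 0.398) and Camk2d (-0.04, adjusted p = 0.870) overlapped between groups. Atp2b1, Calr and Calm3 were each not called without WT replicate 1 (adjusted p = 0.0791, 0.189 and 0.124) and without G-line HET replicate 1, among other libraries.

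Ion channel genes changed in both directions: of 42 tested, 8 were higher and 7 lower (median -0.06), beside 3.97% and 3.54% of all genes. In the fits without 1 library, 4 to 7 were higher and 5 to 6 lower. Kcnd2, a subunit of the transient outward potassium current, held 83.6, 80.2 and 82.7 CPM in WT and 11.0, 15.8 and 21.0 in G-line HET (-2.36 ± 0.29, adjusted p = 0.00110). Gja1, the main ventricular gap junction protein connexin 43, held 539.6, 371.3 and 486.9 CPM in WT and 252.1, 230.0 and 250.8 in G-line HET (-0.93 ± 0.12, adjusted p = 0.000381). Abcc9, the sulfonylurea receptor of cardiac KATP channels, fell by 0.90 ± 0.16 (adjusted p = 0.00385). Kcnv2, a modifier subunit (-2.20), Scn10a, a sodium channel (-1.84), and Cacna1s, the skeletal L-type calcium channel (-1.65), also fell, and Kcnj8, a KATP channel pore, fell by 0.36 (adjusted p = 0.0392).

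Channels of pacemaker tissue were among those that rose. Hcn4, a pacemaker channel subunit, rose from 11.9, 7.87 and 10.2 CPM to 26.1, 19.99 and 20.3 (1.15 ± 0.24, adjusted p = 0.0115). The T-type calcium channel genes Cacna1g and Cacna1h rose: Cacna1g from 12.8, 11.4 and 10.9 CPM to 62.0, 41.0 and 32.8 (1.95 ± 0.29, adjusted p = 0.00367), and Cacna1h from 4.51, 10.7 and 4.09 CPM to 30.6, 23.4 and 27.3 (2.07 ± 0.32, adjusted p = 0.00385). Kcnj12, of the inward rectifier, rose by 0.53 ± 0.09 (adjusted p = 0.00215). Kcne1 (1.46, adjusted p = 0.0378) and Kcnq1 (0.71, adjusted p = 0.0221), the subunits of the slow delayed rectifier, rose too. Scn4b, a sodium channel beta subunit, held 34.2, 46.6 and 52.6 CPM in WT and 12.5, 16.5 and 14.1 in G-line HET but was not called (-1.63 ± 0.59, adjusted p = 0.138). Hcn4 was not called without G-line HET replicate 1 (adjusted p = 0.0606), Cacna1s and Kcnq1 in 4 and 5 of 6 such fits, and Kcne1 and Kcnj8 in all 6 (up to 0.129 and 0.164).

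**Figure D3:**
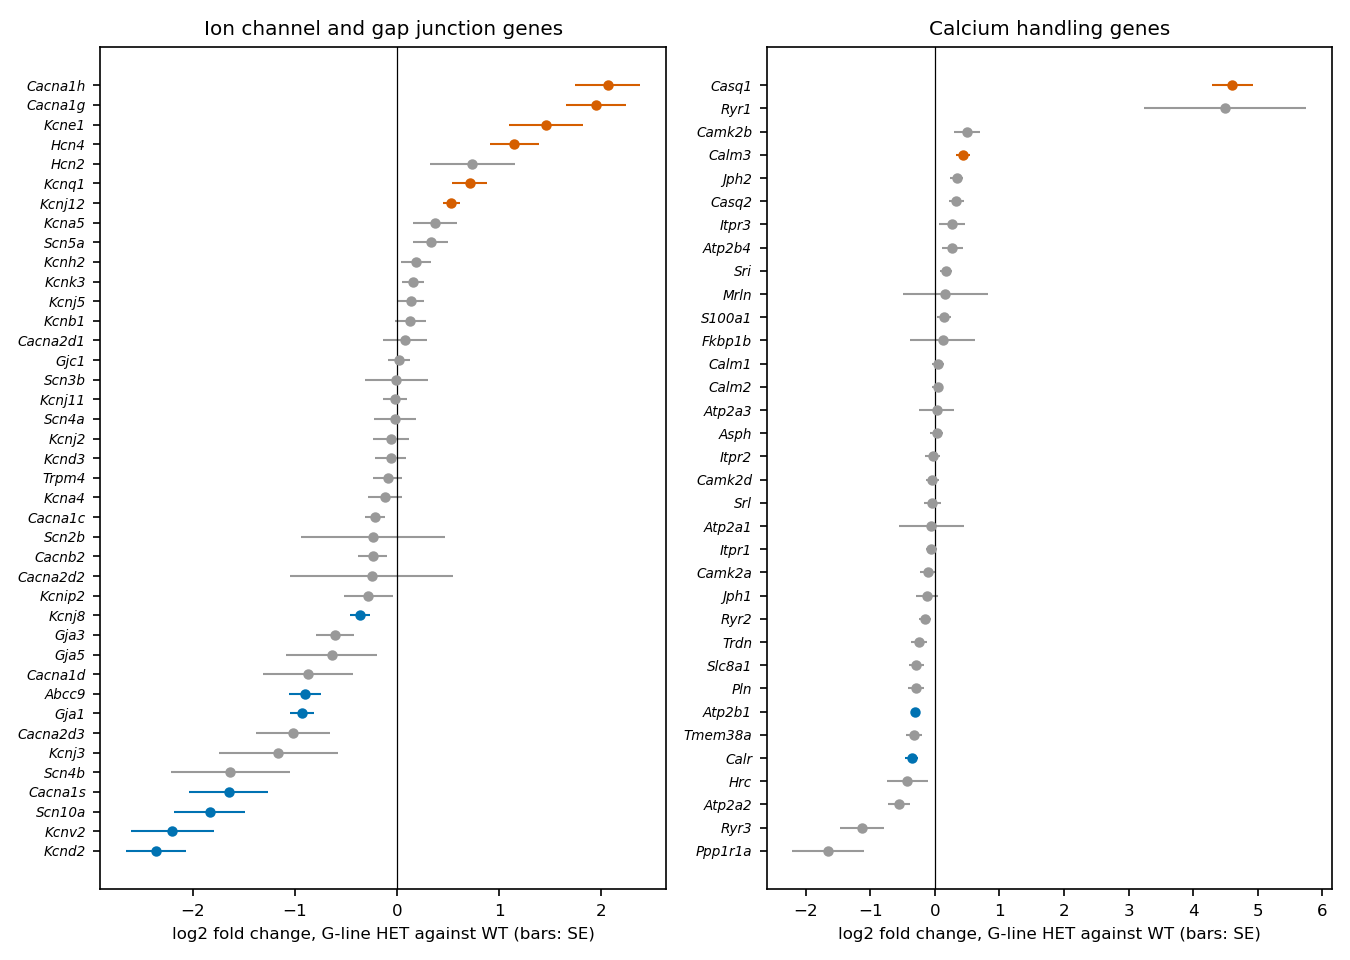
The log2 fold change of G-line HET against WT with its SE, for genes of the ion channel list (left) and of the calcium-handling list (right, where Strit1 and Sln lie far outside the axis and are left out). Orange genes were called higher, blue genes lower and grey genes were not called; Cacna1h and Casq1 lie highest in their panels, and Kcnd2 and Kcnv2 lowest on the left.

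Fetal and wall-stress genes were mostly higher: 7 of 23 tested rose and 1, Myh7, fell, with a median of 0.52. Ankrd1, a stretch-responsive protein of the I-band, held 717.5, 877.5 and 723.1 CPM in WT and 5132, 3188 and 3850 in G-line HET, 5.25-fold higher (adjusted p = 1.44e-05). Nppb, which encodes B-type natriuretic peptide, held 84.9, 70.7 and 105.7 CPM in WT and 387.9, 235.6 and 399.0 in G-line HET, 3.92-fold higher (adjusted p = 0.000670). The largest log2 change on this list, 3.09, was that of Mybpc2, described above with the skeletal muscle genes. For Nppa, which encodes atrial natriuretic peptide, the levels were 64.2 and 87.0 CPM in WT replicates 1 and 3 but 1194 in replicate 2, the library with atrial transcripts, against 2339, 961.6 and 2977 in G-line HET. Its groups overlapped through that library, and the change of 2.22 ± 1.12 was not called (adjusted p = 0.292). Acta1, the skeletal actin, held 120.6, 331.8 and 116.8 CPM in WT against 644.0, 413.3 and 738.4, and its change was not called either (1.66 ± 0.52, adjusted p = 0.0975). The count of wall-stress genes called higher was 3 without WT replicate 3 or without G-line HET replicate 1 or 3.

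Extracellular matrix genes leaned higher: of 65 tested, 62 had a positive change and 3 a negative one (median 0.84). Of the 65, 19 were called higher and none lower (by edgeR, 36 higher and 0 lower at an unadjusted p under 0.05, and by DESeq2 32 and 0). In 33 every G-line HET library lay above every WT library, which held in 15.1% of all genes. Col8a1, a collagen of vessel walls and injured heart, held 32.7, 55.9 and 41.5 CPM in WT and 263.8, 130.5 and 170.8 in G-line HET (2.12 ± 0.27, adjusted p = 0.00144). Ccn4, a secreted matricellular protein, rose from 4.72, 4.50 and 2.46 CPM to 11.5, 12.3 and 11.4 (1.59 ± 0.19, adjusted p = 0.000263). Timp1, an inhibitor of matrix proteases, rose by 2.46 ± 0.43 (adjusted p = 0.00482), Sparc, a collagen-binding glycoprotein, by 1.01 ± 0.16 (0.00227), Tnxb, a tenascin, by 0.73 ± 0.12 (0.00248) and Lama2, the laminin of the muscle basement membrane, by 0.59 ± 0.09 (0.00105). Of the fibrillar collagens, Col5a1 was called (0.89 ± 0.21, adjusted p = 0.0264), though not without WT replicate 1 or 3 or G-line HET replicate 1 (0.114) or 3. The more abundant Col1a1 and Col3a1 were not: Col1a1 held 24.3, 58.4 and 26.4 CPM in WT and 143.0, 58.9 and 111.8 in G-line HET (1.52 ± 0.52, adjusted p = 0.124), and Col3a1 overlapped (0.50, adjusted p = 0.378). Postn, which marks activated fibroblasts, overlapped as well (1.53 ± 0.50, adjusted p = 0.109).

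In the matrix genes printed here WT replicate 2 was often the highest of its group and G-line HET replicate 2 often the lowest of the other. The count called was 25 without WT replicate 2, 24 without G-line HET replicate 2, 8 without G-line HET replicate 1 or 3, and 7 without WT replicate 1 or WT replicate 3. It was 6 with the shared pair left out and 32 with DESeq2. All 16 fibroblast markers had a positive change (median 0.55), of which 2, Pi16 (1.25, adjusted p = 0.0267) and Tbx20 (0.57, adjusted p = 0.0336), were called. Their summed level was 2135, 3811 and 2540 CPM in WT and 3159 to 5221 in G-line HET, overlapping. Pi16 and Tbx20 were both not called without WT replicate 1 (0.105 and 0.0607), WT replicate 3 or G-line HET replicate 1 or 3. In bulk tissue, more cells of a type and more RNA per cell cannot be told apart, and the part of fibroblast number in the matrix genes was not tested.

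**Figure D4:**
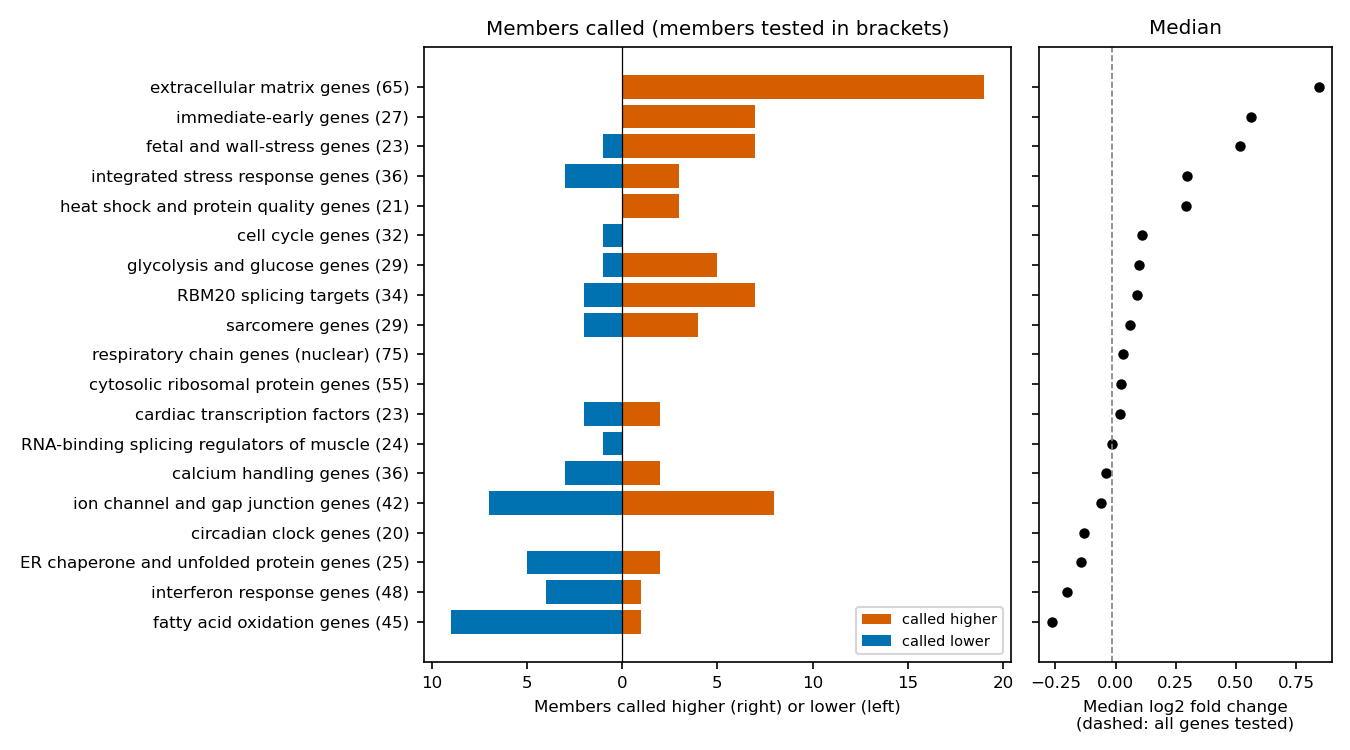
For each of 19 gene lists (members tested in brackets), the number of members called higher (orange, to the right) and lower (blue, to the left), and on the right the median log2 fold change with a dashed line at the median of all genes tested. Matrix genes have the highest median, 0.84 with 19 called higher, and fatty acid oxidation genes the lowest, -0.26 with 9 called lower.

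Fatty acid oxidation genes leaned lower. Of 45 tested, 9 fell and 1 rose, with a median of -0.26, and in 25 every G-line HET library lay below every WT library, against 16.5% of all genes. Cpt1a, which admits long-chain fatty acids to mitochondria, held 82.4, 92.8 and 89.9 CPM in WT and 56.6, 50.4 and 57.8 in G-line HET (-0.69 ± 0.13, adjusted p = 0.00468). Acot1, an acyl-CoA thioesterase, fell by 2.10 ± 0.29 (adjusted p = 0.000670). Ppargc1a, the coactivator PGC-1α, was the gene that rose (0.47, adjusted p = 0.0375), and it was not called without WT replicate 3 (0.147) or in 3 further such fits. The 9 became 3 without G-line HET replicate 1, and none was called with the shared pair left out.

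No respiratory chain gene of 75 was called (median 0.03). Uqcr10, a complex III subunit, came nearest, with 133.0, 144.5 and 156.6 CPM in WT and 217.8, 165.0 and 199.8 in G-line HET (0.42, adjusted p = 0.0690). By edgeR 3 of the 75 had an unadjusted p under 0.05, all higher, and DESeq2 called 2. Glycolytic genes rose in 5 of 29 and fell in 1 (median 0.10), beside 3.97% and 3.54% of all genes. Pfkp, the platelet-type phosphofructokinase, rose from 74.4, 74.3 and 74.7 CPM to 146.4, 116.4 and 142.1 (0.86 ± 0.10, adjusted p = 0.000221). Hk1, the hexokinase of fetal heart, rose by 0.59 ± 0.11 (adjusted p = 0.00460) and Pgam1, a phosphoglycerate mutase, by 0.62 ± 0.12 (adjusted p = 0.00641).

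Of 36 genes of the integrated stress response, 3 rose and 3 fell (median 0.30), beside 3.97% and 3.54% of all genes. Atf4, its central transcription factor, held 39.3, 40.1 and 42.7 CPM in WT and 82.3, 65.6 and 62.7 in G-line HET (0.79 ± 0.11, adjusted p = 0.000570). Ddit3, which encodes CHOP, rose by 0.69 ± 0.13 (adjusted p = 0.00442). Slc7a1, a transporter of cationic amino acids, went the other way, from 60.5, 49.4 and 55.8 CPM to 14.98, 13.8 and 14.5 (-1.94 ± 0.11, adjusted p = 4.64e-07). Vldlr, a lipoprotein receptor, fell by 0.75 ± 0.08 (adjusted p = 0.000169). Of 25 chaperone and unfolded-protein genes of the endoplasmic reticulum, 5 fell and 2 rose, beside 3.54% and 3.97% of all genes. Those that fell include Canx, the lectin chaperone calnexin (-0.38, adjusted p = 0.0293). Sel1l3 (2.49 ± 0.28, adjusted p = 0.000162) and Atf6, a sensor of unfolded protein (0.44, adjusted p = 0.0199), were the 2 that rose. Canx was not called without WT replicate 1 (0.138) or 3 or any 1 G-line HET library, and Atf6 not in 4 of 6 such fits (up to 0.0817). The count of these genes called lower was 0 to 2 in the 6 fits.

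Immediate-early genes rose in 7 of 27 (median 0.56), and none was called lower by edgeR or DESeq2, with 1 lower at an unadjusted p under 0.05. In the fits without 1 library, 5 to 7 were called higher. Btg2, an antiproliferative factor, rose from 24.6, 31.3 and 34.6 CPM to 84.8, 64.2 and 63.6 (1.23 ± 0.18, adjusted p = 0.00154). Fosl2, an AP-1 subunit, rose by 0.94 ± 0.13 (adjusted p = 0.000727), and Atf3, a stress-induced factor, from 1.59, 3.82 and 2.29 CPM to 23.2, 7.56 and 20.8 (2.73 ± 0.46, adjusted p = 0.00740). Heat shock genes rose in 3 of 21 (median 0.29), beside 3.97% of all genes, and in 2 to 3 in the fits without 1 library. None was lower by edgeR, DESeq2 or an unadjusted p under 0.05, while the edgeR fit of the 6 libraries alone called 1 lower. Hspb7, a small heat shock protein of the heart, rose by 0.64 ± 0.11 (adjusted p = 0.00255), and Dnajb4, an HSP40 co-chaperone, by 0.67 ± 0.10 (adjusted p = 0.000910). Interferon-response genes were lower in 4 of 48 and higher in 1 (median -0.20), beside 3.54% and 3.97% of all genes. The count lower was 2 to 5 in the fits without 1 library. Gbp6, an interferon-induced GTPase, fell from 23.4, 24.5 and 29.6 CPM to 10.9, 12.7 and 12.7 (-1.10 ± 0.16, adjusted p = 0.000998). None of 20 clock genes or 55 ribosomal protein genes was called by edgeR, where 2 and 1 had an unadjusted p under 0.05. DESeq2 called 0 of either list, and the edgeR fit of the 6 libraries alone called 3 and 1. Of 32 cell cycle genes only Cenpf, a kinetochore protein, was, falling from 66.5, 50.6 and 43.1 CPM to 10.02, 9.67 and 11.2 (-2.37 ± 0.35, adjusted p = 0.00362).

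Of 34 genes whose transcripts RBM20 is known to splice, 7 were higher and 2 lower (median 0.09), beside 3.97% and 3.54% of all genes. Pdlim5, a Z-disc adaptor, rose by 0.46 ± 0.08 (adjusted p = 0.00359) and kept its call without any 1 library. Ldb3, another Z-disc protein, overlapped between groups (0.08, adjusted p = 0.701). The count called higher was 1 without WT replicate 3 or without G-line HET replicate 1. Of 24 splicing regulators only Rbfox1 was called, at 41.2, 40.1 and 38.4 CPM in WT and 18.9, 21.0 and 21.8 in G-line HET (-0.96 ± 0.22, adjusted p = 0.0243). It was not called in 5 of the 6 fits without 1 library (up to 0.116). Among 23 cardiac transcription factors, Hopx and Tbx5 (-0.85 ± 0.18, adjusted p = 0.00943) fell, and Myocd, the coactivator of serum response factor (0.65 ± 0.10, adjusted p = 0.00187), and Tbx20 rose.

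Markers of the cells a ventricle can hold were read in the same way. Among 15 cardiomyocyte markers 1, Mybpc3, was called, and their summed level was 65740 to 73440 CPM in WT and 65490 to 73540 in G-line HET. Endothelial markers were lower in 3 of 15 (Emcn, Fabp4 and Kdr), beside 3.54% of all genes. The list summed to 1644 to 1707 CPM in WT and 1288 to 1547 in G-line HET. Each of these 3 lost its call without G-line HET replicate 1 (adjusted p = 0.0579, 0.0704 and 0.134), among other libraries. None of 16 macrophage and 4 neutrophil markers was called by edgeR, where 2 and 0 had an unadjusted p under 0.05, and DESeq2 called 0 of either. The edgeR fit of the 6 libraries alone called 1 macrophage marker lower. Of 13 smooth muscle and pericyte markers 2 were lower, the KATP channel genes Abcc9 and Kcnj8 described above, and the list summed to 2817 to 2935 CPM in WT and 2646 to 2744 in G-line HET. The part of pericyte number in these 2 genes was not tested. Lymphocyte markers summed to 23.7 to 27.4 CPM in WT and 13.5 to 18.1 in G-line HET. Cd79b (-1.52, adjusted p = 0.0390) and Ptprc (-0.70, adjusted p = 0.0456) were called lower, each in only 1 of the 6 fits without 1 library.

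The heterozygotes were set beside the most alike groups in the same model. Those groups had uneven libraries too: Myl7 stood at 240.1 CPM in A-line HET replicate 3 and 45.8 in G-line HOM replicate 1. Arntl, a clock gene, held 29.0 CPM in A-line HET replicate 2 and 24.6 in G-line HOM replicate 1. A-line HET libraries held 12959087 to 17448328 counts. The part of these differences in the comparisons below was not tested. Both comparisons with WT share the 3 WT libraries, so their values are given side by side only. Against WT, G-line HOM had 4640 genes called (26.4%) and A-line HET 1400 (7.96%). Between G-line HET and A-line HET, 5 genes were called (0.0284%). Myh7b held 0.219, 0.236 and 0.141 CPM in G-line HOM and 0.315, 0.583 and 0.585 in A-line HET, and Strit1 had no count in either. Casq1 held 267.2, 264.4 and 363.9 CPM in G-line HOM and 221.0, 351.3 and 232.7 in A-line HET, and its level in G-line HOM was not shown to differ from that in G-line HET (0.13, adjusted p = 0.796).

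The test of G-line HOM against G-line HET called 2575 genes (14.6%) and separated genes by how 1 and 2 copies compared. The named genes were chosen on a contrast that holds the same G-line HET libraries, so a high or low level there bears on both. Hopx fell further in homozygotes, to 1.28, 2.12 and 1.97 CPM (-1.65 against G-line HET, adjusted p = 0.0101). Kcnd2 did so too, to 4.85, 2.83 and 7.51 CPM (-1.66, adjusted p = 0.00822). Aqp4 (-4.0 ± 0.90, adjusted p = 0.0110) went from 23 counts over G-line HET to 0.0313, 0 and 0 CPM in G-line HOM. Rgs13 was also called lower (adjusted p = 0.00489), with 21 counts over G-line HET and no reads in the homozygotes. Its log2 change is not printed, since a group without reads allows only a lower bound on the fall. That bound was not computed for this contrast. Ankrd1 rose further, to 8066, 8620 and 6498 CPM (0.93, adjusted p = 0.00592), and so did Nppb (0.86, adjusted p = 0.0288) and Tent5b (1.79, adjusted p = 0.0375).

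Some genes were higher with 1 mutant copy than with 2. Tnni2 held 2.53, 0.518 and 4.65 CPM in G-line HOM, below the 23.4 to 36.9 of G-line HET (-3.52, adjusted p = 0.00512), and G-line HOM was not called against WT (1.09, adjusted p = 0.264). In A-line HET it held 32.9, 31.0 and 19.8 CPM. Hcn4 held 5.13, 6.69 and 10.4 CPM in G-line HOM (-1.59 against G-line HET, adjusted p = 0.00235), and its change against WT was not called there (-0.44, adjusted p = 0.215). The same order held for Kcnj12 (-0.61 against G-line HET, adjusted p = 0.00156) and Tnxb (-0.86, adjusted p = 0.00156), neither called in G-line HOM against WT (adjusted p = 0.546 and 0.467).

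**Figure D5:**
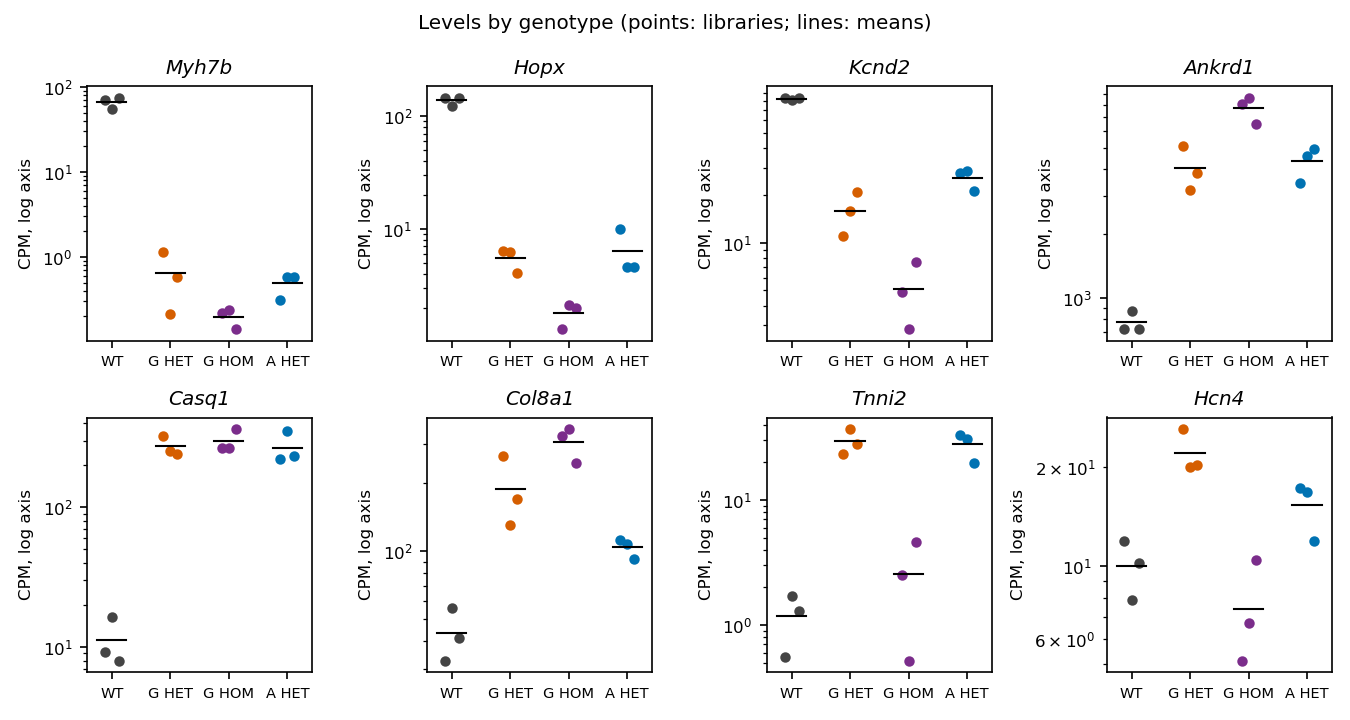
CPM on a log axis for 8 genes in the 3 libraries (points) of WT, G-line HET, G-line HOM and A-line HET, with the group mean as a line. Myh7b, Hopx and Kcnd2 are lower and Ankrd1, Casq1 and Col8a1 higher in all 3 mutant groups than in WT, while Tnni2 and Hcn4 stand lower in G-line HOM than in G-line HET.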

How the data were processed

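Left ventricular RNA was isolated with TRIzol and treated with DNase, and TruSeq total RNA libraries were sequenced, per the labels' protocols. Reads were processed with bcl2fastq 2.20.0.422, Trimmomatic 0.39 and STAR 2.7.4a on mm39 (GRCm39), per the submitters' processing notes. How reads were assigned to genes, with which annotation and strand setting, is not given in the sources used here. The deposited values are unnormalized read counts for each gene symbol and entered the fit unchanged.

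All 13 distinct libraries in 5 groups entered a single edgeR 4.0.16 fit (R 4.3.3) with TMM scaling, robust quasi-likelihood and 1 mean per group. It left 8 residual degrees of freedom and a common biological variation of 17.1%. Genes needed 0.4217 CPM in at least 3 libraries and 15 counts in all. CPM was computed here with TMM. F tests were two-sided, p-values were Benjamini-Hochberg adjusted over the 17588 genes, and log2 fold changes are given ± SE with n = 3 per group. The SE was derived from the test, as the absolute log2 fold change over the square root of F. It thus rests on the spread estimated over all 13 libraries. Where a group had no count, 3 counts over its libraries served as the floor, for counting error only. The fit was tested on simulated data.

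The libraries compared, the gene lists and the rule for naming genes were chosen with earlier results of these data known. The rule took the 15 highest and 15 lowest called genes whose groups did not overlap and whose mean reached 1 CPM, leaving out predicted, clone-named, Y-linked, Xist and Tsix entries. It added up to 3 called members of each list by smallest p, up to 2 not called where fewer than 2 were, and a set of cardiac genes. Other genes in the text were chosen after their values were seen. Some genes that the rule took, or that the lists hold, are not reported here. Gene order and promoters came from RefSeq on GRCm38.p6, whose coordinates were not mixed with the files' build, and 89 of 118 named genes had a promoter entry.

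Alternatives were DESeq2 1.42.0, RLE scaling, 2 other filters, a fit of the 6 libraries alone, a replicate block, removal of rRNA, mitochondrial, Y-linked and Xist genes, leaving out each library, and 3 other treatments of the shared pair. Groups share replicate numbers, but same-numbered libraries did not deviate together (r = -0.094, -0.14 and -0.031 across genes), so the numbers were not read as pairs.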

Additional observations from a re-analysis of the deposited data

Results flagged for a closer look

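Expression of 5 genes differed between the heterozygotes of the 2 lines, by the direct test of G-line HET against A-line HET in the same edgeR model with Benjamini-Hochberg adjustment. Edn3, which encodes endothelin 3, held 3.33, 1.77 and 3.004 CPM in G-line HET and 0.158, 0.175 and 0.319 in A-line HET, a log2 difference of 3.56 (adjusted p = 0.0393), with WT at 1.63, 1.32 and 0.834. Bcl2l11, the proapoptotic BIM, was lower in G-line HET by a difference of -1.10 (adjusted p = 0.0365), at 19.9 to 28.1 CPM against 40.0 to 55.5. Slc39a14, a zinc and iron transporter, was higher by 0.74 (adjusted p = 0.0398), at 83.4 to 94.8 CPM against 46.5 to 64.3. Hspb6, a small heat shock protein of muscle, was higher by 0.66 (adjusted p = 0.0398), at 180.9 to 244.2 CPM against 126.6 to 138.9. The unnamed locus LOC118568781 was lower by a difference of -4.25 (adjusted p = 0.00746), at 0.0756 to 0.130 CPM against 1.06 to 2.76, with 8 counts in all in G-line HET. The G-line HET and A-line HET libraries did not overlap in any of the 5, which adds nothing to the test. Genes that are called seldom overlap: in G-line HET against WT, 1321 of the 1322 called did not. The share over all genes was not counted for G-line HET against A-line HET.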

How the results depend on the processing

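The count of 1322 genes called (699 higher, 623 lower) stayed within 1.5 times under RLE scaling, both filters, DESeq2 and removal of rRNA, mitochondrial, Y-linked and Xist genes, and no called gene turned direction in any setting. It was 2200 (1177 and 1023) with the 6 libraries alone. Leaving out 1 library gave 515 to 1155 calls (293 to 622 higher, 222 to 533 lower). With the shared pair left out there were 236 (118 and 118), with the pair as A-line HOM 5 (1 and 4), and with the pair in both groups 439 (220 and 219). In the 2 former fits WT is 1 library, assumed to vary like the other groups. With the pair as A-line HOM, that group holds unlike libraries, such as 55.3, 75.0 and 0.343 CPM of Myh7b, which enter the estimate of the spread. With the replicate number as a block there were 971 calls (530 and 441), 945 of them among the 1322. Of 78 named genes called, 49 kept the call in all 6 fits without 1 library, 4 more (Strit1, Lincred1, Pde11a and Rgs13) kept it in the fits that tested them, and 29 of 69 tested kept it with the pair left out.

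Log2 changes that turned sign were not called. Without 1 library, Camk2d ranged from -0.0771 to 0.00989, Rbm20 from -0.0978 to 0.0142 (0.0106 without G-line HET replicate 3), Myh6 from -0.0911 to 0.0346 (0.0132 without WT replicate 3), Myl7 from -10.1 to 0.855 and Sln from -13.16 to 1.86, the last 2 positive without WT replicate 2. With the pair left out, Myl7 was at 5.39, Myh6 at 0.0436 and Ldb3 at -0.0326. With the pair as A-line HOM, Myl7 was at 5.43, Sln at 4.96, Adipoq at 3.005, Lep and Upk1b at 0, Myh6 at 0.0495 and Ldb3 at -0.0267. In G-line HOM against G-line HET, Rp1 ranged from -0.633 to 0.213 and Ubxn10 from -0.833 to 2.29 without 1 library, and Strit1 was at -0.0303 under the replicate block. The cause was not tested. Genes near absent outside WT, such as Strit1, fell under the filter when a WT library was left out and were not tested there. Near the filter's 0.4217 CPM, counting noise limits every value.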

Other observations

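Lars2, the mitochondrial leucyl-tRNA synthetase, varied within WT: its 3 libraries held 2227, 483 and 45.0 CPM, beside 43.4, 46.3 and 47.9 in G-line HET. Ucp1, the uncoupling protein of brown fat, had 473 counts in WT replicate 2 and none in the other 5 libraries compared.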
